A study of Mus musculus with 9 samples.

Results

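Semaphorins, plexins and neuropilins are a family of guidance ligands, their receptors and their co-receptors. All genes were taken whose symbol in the array's annotation is Sema with a digit, Plxna, Plxnb, Plxnc or Plxnd with a digit, Nrp1 or Nrp2, with the brightest single-symbol probe set for each gene. This gave 31 genes, 20 semaphorins, 9 plexins and 2 neuropilins, of 19858 genes with a single-symbol probe set. Of the 31, 28 passed a filter on low intensity and were tested among 13335 genes. They were measured on 9 Affymetrix mouse gene arrays, 1 for each culture of primary brown adipose cells. The cells were a precursor-enriched fraction of interscapular brown fat from male C57BL/6 mice aged 5 weeks, and all cultures were given insulin and collected when confluent and differentiated. There were 3 cultures with 1-oleoyl lysophosphatidic acid (LPA, 5 µM), 3 with HA155 (2.5 µM), an inhibitor of the LPA-making enzyme autotaxin, and 3 with the vehicle DMSO (control). It is not settled how long the agents were present, since the design text places them during differentiation and the labels at 9 days in culture. The arrays are called by their subject numbers, 7 to 9 for LPA, 4 to 6 for HA155 and 1 to 3 for control.

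Semaphorins bind plexins, whose cytoplasmic part acts on small GTPases and so on the actin skeleton and on integrin adhesion. Class 3 semaphorins are secreted, and most of them reach A-type plexins only through a neuropilin; classes 4, 5 and 6 are membrane-spanning, and Sema7a is held by a lipid anchor. The family was first studied in growing axons and also acts in blood vessels, bone and immune cells. In fat, semaphorin 3C has been described as a secreted factor in human tissue, and semaphorin 3E with its receptor plexin D1 in visceral fat of obese mice.

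Markers of cell types were measured beside the family. Counts are of markers that passed the filter, while summed intensities take in every listed marker on the array, also those below it. The sums cover 13 endothelial, 13 macrophage, 7 lymphocyte, 7 neuronal and 9 brown fat genes. They cover 9 pericyte and smooth muscle, 10 skeletal muscle and 6 Schwann cell genes. Of the 10 adipocyte markers tested, all 10 fell with LPA against control, and their summed intensity was 13783 to 15254 on the LPA arrays, 31735 to 33444 on the HA155 arrays and 28946 to 30164 on the control arrays; with HA155 3 of the 10 rose. Of 9 preadipocyte and fibroblast markers, 6 rose and 1 fell with LPA, with summed intensities of 41785 to 44078, 30770 to 32968 and 33927 to 35551 on the LPA, HA155 and control arrays. Of 8 pericyte and smooth muscle markers 4 rose with LPA (summed intensity 3659 to 3869, 3071 to 3615 and 2531 to 2851), of 9 skeletal muscle markers 4 rose (1486 to 1676, 1158 to 1246 and 1132 to 1204), and of 5 Schwann cell markers 1 rose, Ncam1 (992 to 1109, 784 to 831 and 827 to 866). Of 9 endothelial markers Tek rose and Sox18 fell (938 to 963, 880 to 949 and 930 to 1006), with the defining genes Pecam1 and Emcn below the intensity filter. None of 9 macrophage (summed intensity 979 to 1268, 1189 to 1341 and 989 to 1108), 3 lymphocyte (262 to 311, 278 to 296 and 278 to 288) and 2 neuronal markers (246 to 272, 263 to 280 and 251 to 285) passed with LPA, and Adgre1, Itgam, Ptprc and Tubb3 lay below the filter. Of 6 brown fat markers 3 fell and 1 rose with LPA (summed intensity 1041 to 1203, 2547 to 2695 and 1718 to 1784), while the defining genes Ucp1, Cidea and Dio2 lay below the filter in these cultures labelled as brown fat. How far these shifts in marker levels enter the changes of the family below was not tested, and in bulk RNA fewer cells of a type and less RNA per cell cannot be told apart. The LPA arrays stood apart from the others on the first principal component (66.7% of the variance), array 8 the farthest.

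With LPA against control, of 7 plexins tested 4 rose and none fell, the neuropilins did not pass the test, and of 19 semaphorins 4 rose and 4 fell. In all 8 of the 28 genes rose (28.6%) and 4 fell (14.3%) at a limma adjusted p below 0.05, where 12.2% of all genes tested rose and 10.8% fell, 23.0% in either direction. The largest changes were modest, 1.49-fold up for Plxnb2 and 1.51-fold down for Sema3g. The median log2 change was 0.25 over the plexins, 0.09 over the semaphorins and 0.01 over all genes.

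The plexin that rose most was Plxnb2, a receptor of class 4 semaphorins. Its log2 intensity was 10.04, 10.27 and 10.18 on the LPA arrays, 9.46, 9.60 and 9.45 on the HA155 arrays and 9.66, 9.50 and 9.61 on the control arrays. Every LPA array lay above every other array, and the HA155 and control arrays overlapped. The log2 change was 0.58 with LPA against control (SE 0.08, limma adjusted p = 0.00024), and the call held in all 18 alternative fits.

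Of the A-type plexins, which with neuropilins form the receptors of most class 3 semaphorins and by themselves bind class 6, 3 of 4 rose. Plxna4 measured 6.16, 6.35 and 6.23 with LPA, 5.84, 5.99 and 5.98 with HA155 and 5.74, 5.99 and 5.73 in control. All LPA arrays were above all control arrays, with a log2 change of 0.43 (SE 0.08, limma adjusted p = 0.00363) that held in all 17 alternative fits that tested it. Plxna1 measured 9.72, 10.34 and 9.88 with LPA, 9.45, 9.46 and 9.28 with HA155 and 9.63, 9.59 and 9.45 in control. The LPA and control arrays did not overlap, but array 8 stood high among the LPA arrays. The log2 change of Plxna1 was 0.42 (SE 0.13, limma adjusted p = 0.0402) with all arrays and 0.24 (adjusted p = 0.0611) without LPA array 8. Its call was also lost without LPA array 9, without any single HA155 array and without any single control array (log2 change 0.37 to 0.47, adjusted p from 0.0531 to 0.139), as well as with no intensity filter (0.0659), with array weights (0.29, adjusted p = 0.0940) and with only the 2 groups compared (0.0887). Plxna3 measured 7.65, 7.77 and 7.80 with LPA, 7.36, 7.31 and 7.19 with HA155 and 7.54, 7.46 and 7.46 in control, 3 groups with no overlap. Its log2 change was 0.25 (SE 0.07, limma adjusted p = 0.0176), with the call lost without LPA array 9 (adjusted p = 0.0523), control 2 (0.0645) or control 3 (0.0600) and with array weights (0.0515). Plxna2, the remaining member of the type, measured 7.90, 8.23 and 7.97 with LPA and 8.07, 7.94 and 7.94 in control, and its change of 0.05 had a 95% interval of -0.14 to 0.24.

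The other plexins and both neuropilins differed less. Plxnb1, the receptor of semaphorin 4D, had a log2 change of -0.04 with LPA (95% interval -0.20 to 0.12), and Plxnd1, the receptor of semaphorin 3E, one of 0.07 (-0.11 to 0.24). Nrp1, which also binds vascular endothelial growth factor, measured 10.08, 10.06 and 10.17 with LPA, 10.06, 10.07 and 10.06 with HA155 and 10.02, 10.03 and 9.97 in control. The LPA arrays lay above the control arrays by little, with a change of 0.10 (interval -0.02 to 0.22, limma adjusted p = 0.236). Nrp2 measured 7.85, 7.97 and 7.98 with LPA and 7.73, 7.81 and 7.82 in control, a change of 0.15 (interval 0.01 to 0.29, adjusted p = 0.129). A rise of either neuropilin as large as that of Plxnb2 lay outside these intervals. Plxnb3 and Plxnc1, the receptor of semaphorin 7A, were below the intensity filter of 5.59. Plxnc1 measured 5.52, 6.06 and 5.59 with LPA, against 4.95, 4.98 and 5.29 in control, and in a fit without the filter it passed (limma adjusted p = 0.0117); as all control arrays lay under the filter level, no fold is given. Plxnb3 ran from 5.24 to 5.39 with LPA and from 5.24 to 5.41 in control.

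Among the secreted class 3 semaphorins Sema3d and Sema3c rose and Sema3g fell with LPA. Sema3d measured 6.78, 7.00 and 7.07 with LPA, 6.46, 6.28 and 6.60 with HA155 and 6.60, 6.34 and 6.47 in control. Each LPA array was above all others, and the change of 0.48 (SE 0.10, limma adjusted p = 0.00564) held in all 18 alternative fits. Sema3c measured 8.56, 8.28 and 8.69 with LPA, 8.09, 7.98 and 7.99 with HA155 and 8.29, 8.10 and 8.09 in control. Here LPA array 8 was the low one and overlapped with control 1. The change of Sema3c was 0.35 (SE 0.10, limma adjusted p = 0.0268), and it was lost as a call without LPA array 7 or 9 or control 2 or 3 (log2 change 0.26 to 0.33, adjusted p from 0.0730 to 0.0992) and with only the 2 groups compared (0.0702).

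Sema3g had the smallest adjusted p of the family against control. It measured 5.99, 5.99 and 6.10 with LPA, 6.36, 6.34 and 6.36 with HA155 and 6.51, 6.74 and 6.62 in control. HA155 arrays 4 and 6 held the same value (6.359712). The 3 groups did not overlap, with the HA155 arrays between the others. Sema3g fell by 0.60 on the log2 scale with LPA (SE 0.07, limma adjusted p = 9.52e-05), and the call held in all 18 alternative fits. The gene is known from endothelium. With LPA 1 of the 9 endothelial markers tested rose and 1 fell, and all 10 adipocyte markers fell. With HA155 against control none of the 9 endothelial markers passed and 3 of the 10 adipocyte markers rose. Sema3g itself was 0.27 lower with HA155 and did not pass (limma adjusted p = 0.148). Which cells made Sema3g here was not tested. Sema3a (-0.03), Sema3b (0.15) and Sema3f (0.15) did not pass, Sema3b with an unadjusted p of 0.0313 and a limma adjusted p of 0.105. Sema3e, the ligand of plexin D1, was below the filter at 5.30 to 5.44 with LPA and 5.16 to 5.27 in control. Sema3d and Sema3a are direct neighbours among protein-coding genes of chromosome 5 in the RefSeq table, so a gene that rose lies beside one with a change of -0.03 (95% interval -0.21 to 0.15).

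The membrane-bound classes moved both ways. Of 6 class 4 semaphorins 2 fell and none rose. Sema4a, known for its part in T-cell responses, measured 6.31, 5.91 and 6.20 with LPA, 6.80, 6.73 and 6.58 with HA155 and 6.56, 6.68 and 6.56 in control. All LPA arrays were below all others, with a change of -0.46 (SE 0.10, limma adjusted p = 0.00606) that held in all 18 fits. Sema4b measured 7.67, 7.69 and 7.72 with LPA, 7.93, 7.95 and 7.94 with HA155 and 7.90, 7.87 and 7.90 in control. The spread within each group was small, and the change of -0.19 (SE 0.05, limma adjusted p = 0.0179) was lost as a call without control 3 (adjusted p = 0.0502) and with only the 2 groups compared (0.0647). Sema4c, a ligand of plexin B2, had a change of 0.22 that did not pass (unadjusted p = 0.0307, limma adjusted p = 0.103). Without LPA array 8 it was 0.31 (adjusted p = 0.0168). Sema4d (-0.03), Sema4f (0.09) and Sema4g (0.10) did not pass, and Sema4f and Sema4g lay close to the filter level.

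Of 4 class 6 semaphorins, ligands of A-type plexins, Sema6c rose and Sema6d fell. Sema6c measured 6.87, 7.27 and 7.08 with LPA, 6.52, 6.57 and 6.67 with HA155 and 6.89, 6.71 and 6.68 in control, so that LPA array 7 overlapped with control 1. Its change of 0.31 (SE 0.10, limma adjusted p = 0.0406) lost its call without LPA array 8 (0.21, adjusted p = 0.113) or 9, without any single HA155 array and without control 2 or 3 (adjusted p from 0.0545 to 0.138). It was also lost with no intensity filter (adjusted p = 0.0663), with array weights (0.0993) and with only the 2 groups compared (0.0897). Sema6d, a ligand of plexin A1, measured 7.84, 8.11 and 7.96 with LPA, 8.30, 8.23 and 8.22 with HA155 and 8.26, 8.31 and 8.20 in control. The LPA arrays were below all others, and the change of -0.29 (SE 0.07, limma adjusted p = 0.0140) was lost as a call without control 2 (adjusted p = 0.0603). Sema6a (0.02) and Sema6b (0.09) did not pass, nor did the class 5 genes Sema5a (0.22) and Sema5b (-0.06). Without LPA array 7, Sema5a measured 0.32 and passed (adjusted p = 0.0423). Sema7a, which acts through plexin C1 and through integrins with a beta 1 chain, measured 6.92, 7.28 and 7.04 with LPA, 6.68, 6.57 and 6.72 with HA155 and 6.79, 6.79 and 6.80 in control. The 3 groups did not overlap. Its change of 0.29 (SE 0.09, limma adjusted p = 0.0331) was 0.19 without LPA array 8 (adjusted p = 0.0620), and the call was also lost without LPA array 9, HA155 array 4 or any single control array (adjusted p from 0.0519 to 0.0879), with no intensity filter (0.0548), with array weights (0.0908) and with only the 2 groups compared (0.0762).

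**Figure D1:**
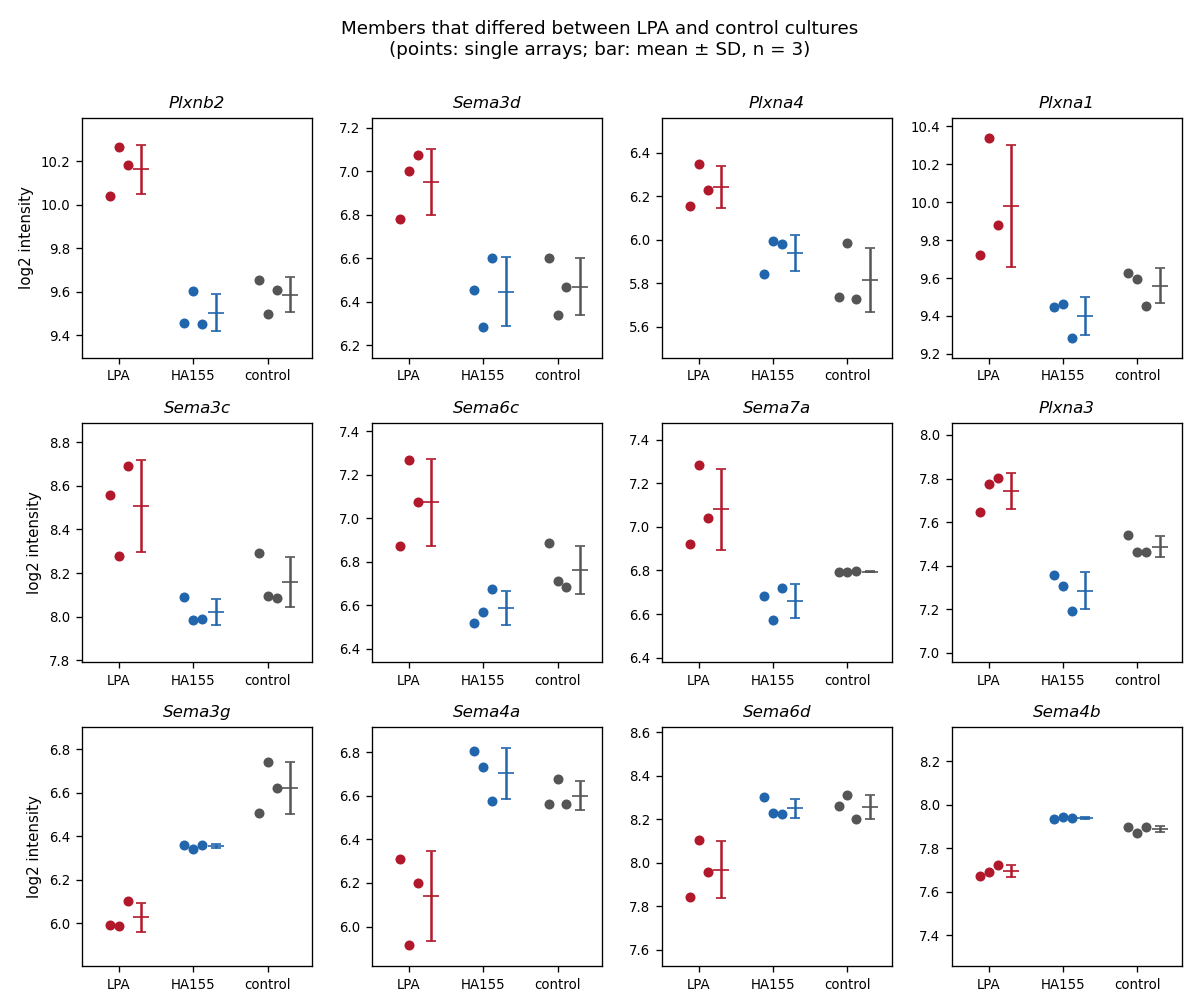
Log2 intensity (vertical axes, each of its own range) of the 12 genes that passed for LPA against control, by group; points are single arrays and the bar beside them is the mean ± SD of 3. The LPA arrays lay wholly above or below the control arrays in all of them except Sema3c and Sema6c, where an LPA array overlapped with control 1.

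Leaving out whole arrays moved the total for LPA against control more than most settings did. The 12 genes were 10 without LPA array 8, 7 without LPA array 9 and 6 each without control 2 or control 3, where 3 rose and 3 fell. In these last fits the 6 of 28 (21.4%) stood beside 17.2% of all genes called without control 2 and 17.9% without control 3, so that the family's share was near the background there. Without LPA array 9 it was 25.0%, against 22.3% of all genes, and with only the LPA and control arrays fitted 25.0%, against 17.4%. With array weights the share was 28.6%, against 21.8% of all genes. Plxnb2, Plxna4, Sema3d, Sema3g and Sema4a kept their call in each of the 9 fits with 1 array left out.

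The stretches of 250 bases before the start of transcription are shown for the 2 genes with the largest rise and the 2 with the largest fall that the RefSeq promoter table (GRCm38.p6) holds, since these carry the contrast within the family. Where a gene has several starts the one farthest upstream is given, 1 of 2 for Plxnb2 and 1 of 4 for Sema4a. They are chr15:89180789-89181038 (minus strand) for Plxnb2, chr5:12382916-12383165 (plus) for Sema3d, chr14:31217623-31217872 (plus) for Sema3g and chr3:88461183-88461432 (minus) for Sema4a. Capitals mark GC boxes, read on either strand.
Plxnb2: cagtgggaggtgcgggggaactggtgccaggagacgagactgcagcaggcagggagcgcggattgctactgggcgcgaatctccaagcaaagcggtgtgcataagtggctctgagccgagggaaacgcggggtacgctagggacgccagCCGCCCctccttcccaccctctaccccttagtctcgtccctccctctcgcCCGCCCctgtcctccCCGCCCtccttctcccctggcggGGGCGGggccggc
Sema3d: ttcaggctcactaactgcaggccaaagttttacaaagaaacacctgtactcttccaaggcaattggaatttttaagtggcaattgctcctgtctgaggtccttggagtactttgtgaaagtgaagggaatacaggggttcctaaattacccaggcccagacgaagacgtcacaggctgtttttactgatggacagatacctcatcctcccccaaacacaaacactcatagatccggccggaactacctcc
Sema3g: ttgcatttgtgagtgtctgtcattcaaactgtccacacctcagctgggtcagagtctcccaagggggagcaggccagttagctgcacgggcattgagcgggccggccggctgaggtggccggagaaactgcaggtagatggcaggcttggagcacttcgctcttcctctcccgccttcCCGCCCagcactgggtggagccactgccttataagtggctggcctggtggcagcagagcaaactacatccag
Sema4a: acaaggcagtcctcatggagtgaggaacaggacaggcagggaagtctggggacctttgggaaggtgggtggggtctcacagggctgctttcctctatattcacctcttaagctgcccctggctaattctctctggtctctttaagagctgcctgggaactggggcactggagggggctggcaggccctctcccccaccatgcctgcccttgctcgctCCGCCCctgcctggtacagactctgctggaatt

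The table held 37 starts for 26 of the 31 genes, among them 10 of the 12 that passed for LPA. These windows of 300 bases, which also take in 50 bases after the start, were searched on both strands for 5 motifs. The GC box GGGCGG was in 27 of 37 starts of the family (73.0%) and in 35.7% of all 32851 starts. It was in 6 of 8 starts of genes that rose, 7 of 9 of genes that fell and 12 of 17 of genes that did not pass for LPA against control, and in 2 of 3 of genes below the filter. A gene can have several starts, as with the 9 starts of the 4 genes that fell. The family's starts had a median GC content of 63.7%, against 52.7% over all starts. The GC box is made of G and C only, and how far GC content enters its share was not tested. The 4 stretches shown differ in GC boxes: Plxnb2 held 4, Sema3g and Sema4a 1 each and Sema3d none, with GC contents of 69.2%, 60.4%, 59.6% and 46.8%. The core of TEAD sites GGAATG was in 3 starts (8.11%, against 14.7% of all starts), 1 of them of a gene that passed, Sema4a. The AP-1 site TGANTCA was in 3 (8.11%, against 7.81%) and the serum response factor motif CArG box in 1 (2.70%, against 1.63%). All were of genes that did not pass for LPA against control. The direct repeat DR1 bound by PPAR was in 0 of 37, and in 0.0396% of all starts. Of the 5 motifs the 4 stretches shown held GC boxes only.

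With HA155 against control none of the 28 genes passed (limma, 0 higher and 0 lower), where 1.03% of all genes did (0.607% higher and 0.427% lower). A count of 0 of 28 is near that background. At an unadjusted p below 0.05 there were 3 of 28 (10.7%), near the 8.11% of all genes, and all 3 were lower with HA155. Sema3g was 0.27 lower on the log2 scale (95% interval -0.42 to -0.12, unadjusted p = 0.00253, limma adjusted p = 0.148), Plxna3 0.20 lower (interval -0.35 to -0.05, unadjusted p = 0.0117, adjusted p = 0.342) and Sema6b 0.17 lower (unadjusted p = 0.0463, adjusted p = 0.604). In all 3 genes the HA155 arrays lay below the control arrays. Sema3g passed in 1 of 18 alternative fits, that with array weights (-0.30, adjusted p = 0.0148), and its adjusted p ran from 0.0853 to 0.467 in the other 17. The 28 changes lay between -0.27 and 0.12 with a median of -0.03. For Plxnb2 the change of -0.08 had an interval of -0.25 to 0.08, and for Sema3d the change of -0.02 one of -0.25 to 0.20.

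LPA against HA155 sets the enzyme's product against its inhibitor. The control arrays do not enter the difference itself, but they enter the estimate of the spread that the 3 groups share. Of the 28 genes 11 were higher with LPA (39.3%) and 4 lower (14.3%), where 13.7% and 12.4% of all genes tested were, 26.1% in either direction. All 12 genes that passed for LPA against control passed here, in a comparison that shares the LPA arrays with it. Plxnb2 differed by 0.66 (SE 0.08, limma adjusted p = 7.5e-05), Plxna1 by 0.58 (adjusted p = 0.00688), Plxna3 by 0.46 (adjusted p = 0.000416) and Plxna4 by 0.30 (adjusted p = 0.0206). The calls of Plxna1 and Plxna3, which several single arrays decided against control, held here in all 18 alternative fits, while Plxna4 lost its own without LPA array 8 (adjusted p = 0.0642) or HA155 array 4 (0.0956). Among the semaphorins Sema3d differed by 0.50, Sema3c and Sema6c by 0.49, Sema7a by 0.42, Sema3g by -0.33, Sema4a by -0.56, Sema4b by -0.24 and Sema6d by -0.28 (limma adjusted p from 0.00145 to 0.0137). Of these 8 only Sema6d lost its call in any alternative, without HA155 array 4 (adjusted p = 0.0634).

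Sema3b, Sema5a and Sema6b passed for LPA against HA155 but not for LPA against control. Sema5a, known for both attractive and repulsive guidance, measured 6.74, 7.18 and 6.88 with LPA, against 6.60, 6.47 and 6.46 with HA155. The groups did not overlap, with a difference of 0.42 (SE 0.10, limma adjusted p = 0.0108). Sema3b, a secreted ligand, measured 6.91, 7.01 and 6.90 with LPA and 6.74, 6.59 and 6.62 with HA155, also with no overlap, a difference of 0.29 (SE 0.06, adjusted p = 0.00534). Sema6b measured 6.77, 6.70 and 6.75 with LPA and 6.30, 6.57 and 6.57 with HA155, where array 4 was low. Its difference of 0.26 (SE 0.08, adjusted p = 0.0292) fell to 0.17 without HA155 array 4 (adjusted p = 0.116), and the call was also lost without LPA array 7 (0.0727) or 9 (0.0659) and with only the 2 groups compared (0.0582). The control means of all 3 genes lay between those of LPA and HA155, at 6.71 for Sema5a, 6.78 for Sema3b and 6.65 for Sema6b. Of the genes that missed the threshold here, Sema3f (0.27, adjusted p = 0.0554), Sema4c (0.26, adjusted p = 0.0576) and Plxna2 (0.15, adjusted p = 0.244) had the smallest p. Sema3f passed in 4 of the 18 alternative fits (adjusted p from 0.0230 to 0.0470) and Sema4c in 3 (0.00879 to 0.0489), so that their side of the threshold depended on the setting.

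**Figure D2:**
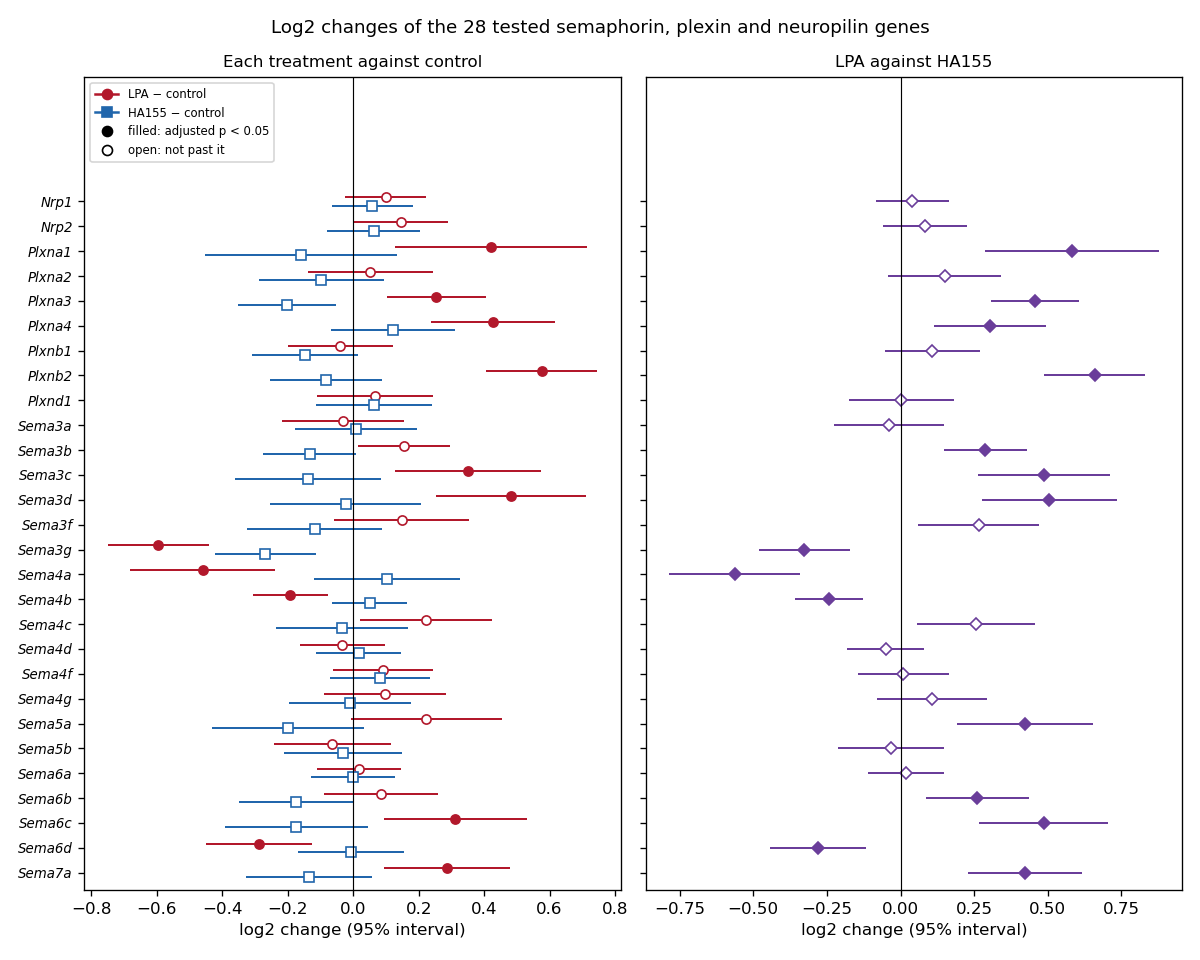
Log2 change (points) with its 95% interval (lines) for each of the 28 tested genes; the left panel has LPA minus control above HA155 minus control in each row, the right panel LPA minus HA155, and filled points passed at a limma adjusted p below 0.05. All HA155 points are open, while 12 LPA points on the left and 15 on the right are filled; Plxnb2 lies farthest right in both panels.

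The partners of the family were read from a list of 68 genes, of which 55 were tested. With LPA against control 19 of the 55 rose (34.5%) and 2 fell (3.64%), where 12.2% of all genes rose and 10.8% fell (median log2 change 0.15 over the 55). Of 21 partners and co-receptors 7 rose and 2 fell, and of 34 intracellular effectors 12 rose and none fell. The 6 of smallest p were Plxdc2, a membrane protein with a plexin-like domain (0.96), Dpysl3, one of the collapsin response mediator proteins that act downstream of semaphorin 3A (0.71), the hepatocyte growth factor receptor gene Met, whose product associates with B-type plexins (-0.59), the integrin chain gene Itga1 (0.51), the kinase gene Fyn (0.53) and the co-receptor gene Ptk7 (0.49), each with a limma adjusted p of 0.000656 or less. Itgb1, the beta 1 chain through which Sema7a also signals, rose by 0.24 (adjusted p = 0.00835). With HA155 against control 1 of the 55 passed (1.82%), near the 1.03% of all genes. This gene was Dpysl3 (0.46, limma adjusted p = 0.0431), at a mean of 8.48 with LPA, 8.23 with HA155 and 7.77 in control. Its HA155 call was lost without LPA array 7 or 9, HA155 array 4 or 5, or control 2 or 3, and with no intensity filter or only the 2 groups compared. With LPA against HA155 19 of the 55 were higher (34.5%, against 13.7% of all genes) and 5 lower (9.09%, against 12.4%), 24 in all. This total was 13 without HA155 array 4 (23.6%, against 19.7% of all genes) and 12 without HA155 array 6 (21.8%, against 19.4%), both near the background.

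In 31 tested genes of the other guidance families, slits, netrins, ephrins and their receptors, 11 rose (35.5%) and 1 fell (3.23%) with LPA against control, where 12.2% of all genes rose and 10.8% fell (median 0.16 over the 31). Differences between the gene lists were not tested.

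**Figure D3:**
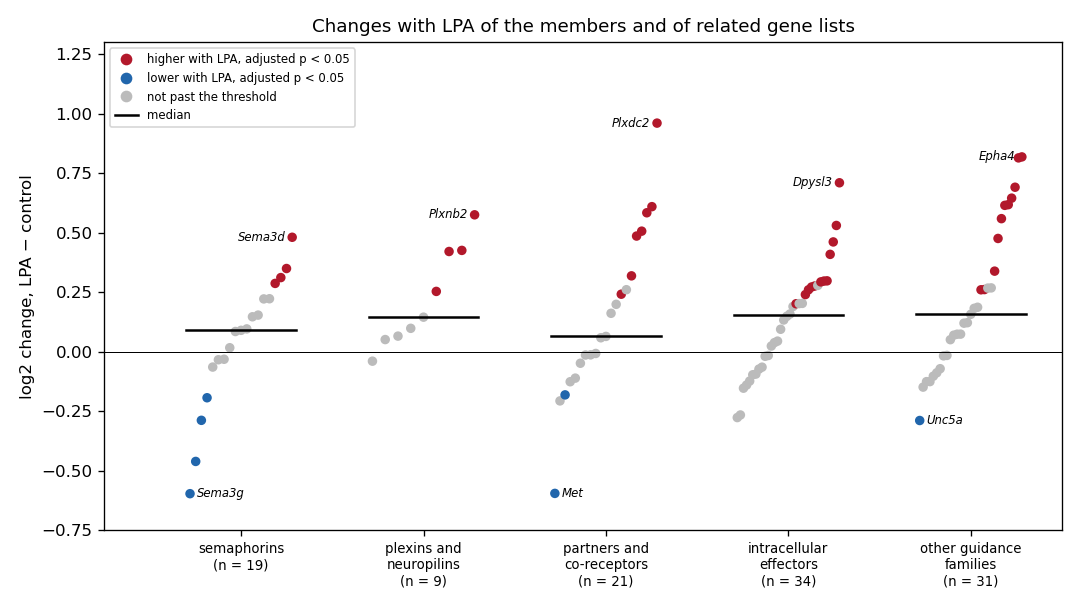
Log2 change with LPA against control (vertical axis) of each tested gene, in order of size within 5 sets: 19 semaphorins, 9 plexins and neuropilins, 21 partners and co-receptors, 34 intracellular effectors and 31 genes of other guidance families; black bars are medians and colour marks genes with a limma adjusted p below 0.05. The semaphorins have 4 red and 4 blue points, the plexins and neuropilins 4 red and none blue.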

How the data were processed

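Biotin-labelled total RNA of 9 cultures was hybridised to 1 Affymetrix array each. The deposited values are intensities on a linear scale, made by the authors with RMA per the submitters' processing notes (no version stated there). RMA as published corrects background, makes the arrays' distributions alike and summarises probes. The linear scale was read from the values. Array medians ran from 70.7 to 72.8. Changes of dim probes are compressed on this scale and a shift of all genes is removed.

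The fits used log2 intensity without an added offset. Of 35432 probe sets 21706 carry 1 symbol in the platform annotation; the brightest was used for each of 19858 genes, and genes whose mean lay under 5.59, which 40% of all probe sets do, were left out. Both probe sets of Sema6b hold the same values, and the dimmer of Sema4d was not used. All 31 family genes matched RefSeq by Entrez identifier. limma 3.58.1 in R 4.3.3 (lmFit, eBayes) was fitted to the 3 groups together (9 arrays, residual degrees of freedom 6), with Benjamini-Hochberg adjustment over 13335 genes, two-sided, at 0.05. The number of arrays limits the precision (median SE of a log2 change 0.08), and with 3 against 3 an exact test of 1 gene cannot go below p = 0.1. The procedure was tested on simulated data. The subject numbers differ between groups and no batch is named; treatment and any batch aligned with it cannot be told apart. Subjects are numbered, but whether each is a separate animal is not stated, so p-values measure the spread between these cultures, which may be partly technical. Some genes held exactly the same value on several arrays of a group. Examples are Sema3g on HA155 arrays 4 and 6 (6.359712), Plxna3 in control 2 and 3 (7.46074) and Sema4a in control 1 and 3 (6.56292). How far such ties narrow the spread within groups was not tested.

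Every family gene is named, and genes that passed for LPA against control have their values on all arrays. Sema3b, Sema5a and Sema6b have those on the LPA and HA155 arrays, with the control mean. Of the genes that did not pass, the 3 of smallest p per comparison have their change and p. Of the partner list, the 6 of smallest p for LPA and all that passed for HA155 are named; Itgb1, the genes marked in the plot of gene lists and the single markers Tek, Sox18 and Ncam1 were picked with their values known. The family, the lists and the settings were chosen with earlier results of these data known. The promoter table's sequences were checked to be on the gene's strand (the bases of 1626 of 1626 overlapping pairs of starts on opposite strands were the same). Alternatives were other filters, an offset, centring, other probe set rules, other variance models, array weights, fits of 2 groups and leaving out each array.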

Additional observations from a re-analysis of the deposited data

How the results depend on the processing

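Results were recomputed under 18 alternatives, 9 of them leaving out 1 array. No family gene that passed changed sign in any of them. The 12 genes called for LPA against control were 7 when the fit held only the groups compared, and 6 to 12 with 1 array left out. The cause of these shifts was not tested. Under the other settings the count was 8 to 12. For HA155 against control the count was 0 except with array weights, where it was 1 (Sema3g), and 0 with each array left out (0 to 0). For LPA against HA155 the 15 genes were 14 to 16 under other settings and 12 to 16 with 1 array left out. The 12, without HA155 array 4, were 42.9%, against 19.7% of all genes. The 16 without control 1 were 57.1%, against 25.2%. Among the partner genes the 1 call for HA155 was 0 with no intensity filter and with only the 2 groups compared. It was 2 with the filter at the 50th percentile, with an offset of 16 and with centred arrays. Those shares were 3.64% to 3.92%, against 0.952% to 1.26% of all genes. With array weights the count was 3 (5.45%, against 2.53% of all genes), and with 1 array left out 0 to 2. The partner calls for LPA against control were 15 to 22 with 1 array left out, and those for LPA against HA155 12 to 23. Over all genes the 138 calls for HA155 were 86 with no filter, 338 with array weights and 39 to 232 with 1 array left out. No paired analysis was possible because the groups share no subject numbers. Levels near 5.59 are close to background, which limits Sema4f, Sema4g, Plxnc1, Plxnb3 and Sema3e. Plxna4, at a mean of 6.00, was also dim and was left out by the filter at the 50th percentile.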
